A study of Mus musculus with 10 samples.

Results

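The genes described here encode the enzymes and transporters of glycolysis and a set of other genes induced by low oxygen, 38 in all. A member was any gene of that list with at least 1 probe set whose platform annotation gives exactly one gene symbol. This held for 34 genes with 77 probe sets, out of 18193 genes with such probe sets in the whole table. They divide into 18 of the 21 glycolysis genes listed and 16 of the 17 hypoxia-induced and HIF genes listed. No single-symbol probe set was found for Gpi1, Eno1, Gapdh or Bnip3l, and Gapdh and Bnip3l each have 3 probe sets that also name other genes.

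The livers came from mouse fetuses at E14.5 on a mixed b6, 129 background, 5 wild type and 5 Zfp36l2 knockout, and the RNA of each of the 10 was hybridised to its own array. Litter, sex and the deleted stretch of Zfp36l2 were not stated. Zfp36l2 is a relative of tristetraprolin, a protein that attaches to AU-rich stretches of mRNAs and speeds their breakdown. The design sets livers lacking it against livers that have it.

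Glycolysis splits glucose into pyruvate in the cytosol and yields ATP without oxygen, and lactate dehydrogenase then turns pyruvate into lactate, which leaves the cell. When oxygen is short, the prolyl hydroxylases (the Egln proteins) stop marking the HIF alpha subunits for destruction, and HIF binds short sites with the core ACGTG or GCGTG and switches on many of these genes. Fetal liver at this age is filled with red cell precursors, which keep special forms of some steps: Pklr encodes the pyruvate kinase of liver and red cells, and Bpgm encodes the enzyme that makes 2,3-bisphosphoglycerate.

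Promoter stretches around such core motifs are shown for the 4 called members, for Aldoa and Egln3, and for Slc2a1, which differed little, because the same letters stand near the start sites of members that differed and of members that did not. The sequences are from RefSeq (GRCm38.p6), 5′ to 3′ on the strand of the gene, with 1 core motif a line in capitals; CACGT is ACGTG read on the other strand.
Pgk1 at 150 bases: gcgtcgtgcaggACGTGacaaatggaagta
Pgk1 at 131 bases: aaatggaagtagCACGTctcactagtctcg
Ldha at 144 bases: gtgtcgcagcacACGTGgagccactcttgc
Ldha at 47 bases: ggcccagcctacACGTGggttcccgcacgt
Ero1a: cgcgcgccgctgCACGTccgcaggggaggc
Aldoa: tgtggctcgagtCACGTcctagcggggcgg
Egln3: tgtgcatctcagACGTGagatccaggtttt
Slc2a1: gtcccgccccggACGTGctccccaggcccc
Pfkp: ggccccgcccttGCGTGagtcccgcccatc

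The Pgk1 windows lie at chrX:106186938-106186967 and chrX:106186957-106186986 on the plus strand, with the motif 150 and 131 bases before the start site. Those of Ldha lie at chr7:46845648-46845677 and chr7:46845745-46845774 on the plus strand, 144 and 47 bases before it. The remaining windows are chr14:45318618-45318647 (Ero1a, minus strand, 63 bases before), chr7:126799363-126799392 (Aldoa, minus, 126 and 202 bases before 2 annotated starts), chr12:54204086-54204115 (Egln3, minus, 229 bases before), chr4:119108697-119108726 (Slc2a1, plus, 36 bases before) and chr13:6648822-6648851 (Pfkp, minus, 68 bases before). The motif was searched on both strands over 250 bases before to 50 after each annotated start. The Ldha motifs in capitals are also part of the longer motif CACGTG, which reads the same on both strands, and the cacgt that ends the second Ldha line is a further match on the other strand, 34 bases before the start. Of 33 members with a promoter in the table, 24 (72.7%) held ACGTG in at least 1 promoter, against 21.8% of 27025 genes. The member promoters are rich in CG, with a median of 20 CG pairs against 7 over all promoters, and ACGTG holds such a pair. Among all promoters with at least 20 CG pairs, 29.0% held ACGTG, against 56.2% of the 48 member promoters. For GCGTG the order was the reverse in that comparison: 52.1% of member promoters held it, against 32.4% of all promoters and 63.5% of those with at least 20 CG pairs. Slc2a1, with this motif, differed little between the genotypes, and Pfkp, with the largest difference, held GCGTG but no ACGTG, so a match is a description of these letters and not of a bound site.

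Across the whole table, the Zfp36l2 signal was 434 ± 91.0 in wild type against 102 ± 11.3 in the knockout (SD, n = 5; log2 change -2.08 ± 0.13, SE). Array medians ran from 19.5 to 25.01 intensity units before quantile normalization. Values were then set to at least 16, a floor that understates differences of dim genes, and taken to log2. Limma called 42 of 12821 tested genes at a Benjamini-Hochberg adjusted p under 0.05, 20 higher and 22 lower in knockout livers. A gene is called here where it passed that threshold, and levels are normalized intensities of its brightest probe set, which cannot be compared between genes. The hepatoblast markers Afp and Alb and the red cell marker Slc4a1 were far above the floor, at 16358, 15407 and 7929 in wild type livers.

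Of the members 4 were called, all higher in the knockout: the Pfkp form of phosphofructokinase, phosphoglycerate kinase (Pgk1), lactate dehydrogenase A (Ldha) and the oxidase of protein folding Ero1a. All 34 members passed the filter on low values. Of them 4 were called higher and 0 lower, where 0.156% of all tested genes were called higher and 0.172% lower. At an unadjusted limma p under 0.05, 17 members were higher and 2 lower, against 5.94% and 5.44% of all tested genes. In 6 members every knockout liver lay above every wild type liver, and in 0 below, against 1.36% and 1.44%. The median log2 change was 0.25 over the glycolysis members (12 of 18 positive) and 0.24 over the hypoxia-induced members (14 of 16 positive), against a median of 0.00 and 50.1% positive over all tested genes. These calls lay close to the threshold. With the lowest positive value as the floor, the changes of Ero1a, Pfkp, Ldha and Pgk1 were the same but 0 of the 34 members and 9 genes in all were called (limma adjusted p = 0.0594, 0.0676, 0.0725 and 0.0939).

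**Figure D1:**
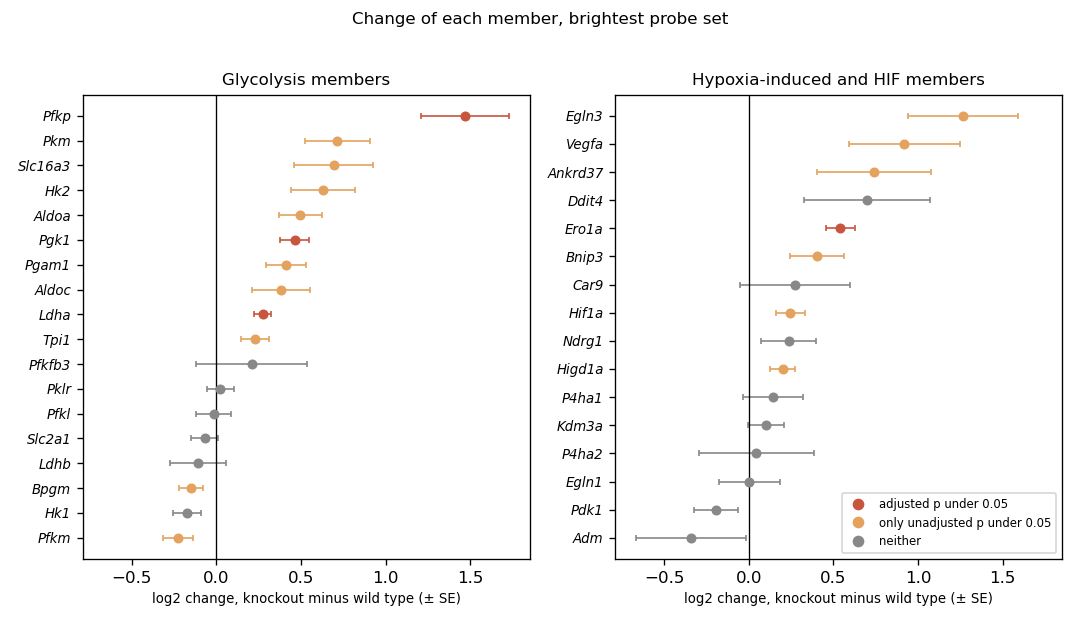
The log2 change (knockout minus wild type, whiskers ± SE from limma) of each member's brightest probe set, glycolysis members on the left and hypoxia-induced and HIF members on the right; colour marks the adjusted and unadjusted p. Pfkp, at 1.47, lies farthest to the right on the left side and Egln3, at 1.27, on the right side, and the 4 called members are all positive.

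Glucose enters cells through Slc2a1, a glucose transporter of red cell precursors. It read 5379, 5903, 5232, 4915 and 6274 in wild type livers 1 to 5 and 5267, 6308, 5267, 5018 and 4584 in knockout livers 1 to 5, the order used throughout. The genotypes overlapped over most of their range, and the log2 change of -0.07 had a 95% interval of -0.24 to 0.10.

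The hexokinases, which trap glucose in the cell, differed in direction, with neither called. Hk2, the form often induced with growth and low oxygen, read 181, 159, 128.5, 177 and 168 in wild type and 351, 369, 193, 195 and 202 in knockout livers. No livers overlapped, but knockout livers 1 and 2 stood far above the other knockout livers, and the log2 change of 0.63 ± 0.19 was not called (limma adjusted p = 0.209; two-sided exact permutation p = 0.00794, the lowest possible in this design). Without both of these livers, a choice made after seeing the values, it was 0.28. Hk1, the more widely expressed form, averaged 1003 ± 109 and 889 ± 88.7 (log2 -0.17 ± 0.08, limma adjusted p = 0.531).

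Phosphofructokinase commits sugar to glycolysis, and its genes differed most among themselves. Pfkp, known as the platelet form, read 23.3, 35.1, 41.4, 27.04 and 41.8 in wild type and 117, 129.7, 78.0, 73.6 and 71.9 in knockout livers. Each knockout liver lay well above each wild type liver, a 2.77-fold difference (log2 1.47 ± 0.26, limma adjusted p = 0.0337, n = 5 per genotype). Of the markers of megakaryocytes, the source of platelets, all 9 tested of 10 were lower. Of these 6 were called lower, against 0.172% of all tested genes. Their summed level ran from 3989 to 5783 in wild type and from 1698 to 2744 in knockout livers. The part of these cells in the Pfkp values was not tested. A second tested Pfkp probe set was dim, at 16.7 and 23.6, and was not called (limma adjusted p = 0.892). In it 3 wild type and 2 knockout livers were at or under the floor, so no fold is given. Another did not pass the filter.

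The liver form Pfkl averaged 833 ± 109 and 826 ± 135 (log2 -0.02, 95% interval -0.24 to 0.21). The muscle form Pfkm read 354, 344, 317, 358 and 287 in wild type and 303, 249.8, 284, 289 and 288 in knockout livers, lower in most but with wild type liver 5 among the knockout values (log2 -0.23 ± 0.09, limma adjusted p = 0.387). Of the 3 tested skeletal muscle markers, Ckm averaged 2.94 and 21.5 and Actc1 19.3 and 18.8, near or under the floor. Mylpf was above it at 118 ± 22.5 and 94.1 ± 13.9 (log2 -0.32 ± 0.17, limma adjusted p = 0.598). Of the 3 changes 2 were positive and 1, that of Mylpf, was negative. After subtracting genotype means, Pfkm and the median of the 3 markers had a Pearson r of -0.21 over the livers (rho = -0.39). Leaving out the 2 livers farthest from the median of a score that used gene means over all livers gave r = 0.20. Here genotype means were subtracted only after the livers were left out. The part of muscle in the Pfkm values was not tested. Pfkfb3, which makes the activator of phosphofructokinase, was dim and ran from 29.6 to 99.98 in wild type and 40.6 to 83.9 in knockout livers.

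In the aldolase step, which cuts the 6-carbon sugar, Aldoa read 1284, 1068, 1371, 1064 and 1156 in wild type and 1772, 2392, 1636, 1436 and 1301 in knockout livers. Only knockout liver 5 fell within the wild type range, and the change of 0.50 ± 0.13 was not called (limma adjusted p = 0.130). All 5 Aldoa probe sets gave positive changes, from 0.27 to 0.62, but all carry the x suffix that marks probes shared with similar sequences, so the gene's own part in them is uncertain. Aldoc, a form best known from brain, read 94.8, 79.4, 122, 118 and 103 in wild type and 139.6, 171, 104, 116 and 145 in knockout livers. Its ranges overlapped in the middle (log2 0.38 ± 0.17, limma adjusted p = 0.481).

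Among the later steps, which turn the 3-carbon sugars into pyruvate, Pgk1 alone was called. Triose phosphate isomerase, Tpi1, read 2551, 2876, 3219, 2446 and 2736 in wild type and 3325, 3797, 3212, 2866 and 3002 in knockout livers. The genotypes overlapped (log2 0.23 ± 0.08, limma adjusted p = 0.337). This Tpi1 probe set carries the x suffix and the limit given for Aldoa, while the others, without that suffix, gave 0.20 and 0.14. Pgk1, which makes the first ATP of the pathway's later steps, read 2848, 2591, 2905, 2528 and 2500 in wild type and 3950, 4543, 3585, 3166 and 3309 in knockout livers. The lowest knockout liver stood above the highest wild type liver, and Pgk1 rose 1.38-fold (log2 0.46 ± 0.09, limma adjusted p = 0.0362). Its other probe sets gave 0.42 and 0.41 with no overlap (limma adjusted p = 0.0675 and 0.0725), but both carry the x suffix and the limit given for Aldoa.

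Phosphoglycerate mutase, Pgam1, read 1846, 1654, 1823, 1286 and 1632 in wild type and 2155, 2772, 2435, 1877 and 1786 in knockout livers. One knockout liver fell within the wild type range (log2 0.41 ± 0.12, limma adjusted p = 0.185). The red cell enzyme Bpgm, which branches off at this point, read 1182, 1258, 1156, 1158 and 1478 in wild type and 1064, 1130.0, 1132, 1094 and 1173 in knockout livers. In 4 knockout livers it lay below every wild type liver (log2 -0.15 ± 0.07, limma adjusted p = 0.498). All 3 Bpgm probe sets gave negative changes, from -0.19 to -0.12.

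Pyruvate kinase, the last ATP-making step, differed by form. Pkm, whose products include the M2 form of growing cells, read 434, 249.7, 333, 280.4 and 314 in wild type and 506, 902, 458, 485 and 374 in knockout livers. Knockout liver 2 was far above the rest, and knockout liver 5 lay below wild type liver 1 (log2 0.72 ± 0.19, limma adjusted p = 0.149). Pklr averaged 687 ± 79.7 and 696 ± 43.0 (log2 0.02, 95% interval -0.15 to 0.19).

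Ldha, which turns pyruvate into lactate, read 6684, 6187, 6356, 6096 and 6285 in wild type and 7691, 8282, 7293, 7323 and 7644 in knockout livers. The genotypes were apart and tight, so a 1.21-fold difference was called (log2 0.27 ± 0.05, limma adjusted p = 0.0385). Ldhb, which favours the reverse reaction, ran from 135 to 229 in wild type and 112 to 184 in knockout livers (log2 -0.11 ± 0.17). Slc16a3, the exporter of lactate, read 102, 65.1, 149, 118 and 70.5 in wild type and 144, 215, 199, 119 and 124 in knockout livers. It overlapped between the genotypes and was not called (log2 0.69 ± 0.23, limma adjusted p = 0.291).

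**Figure D2:**
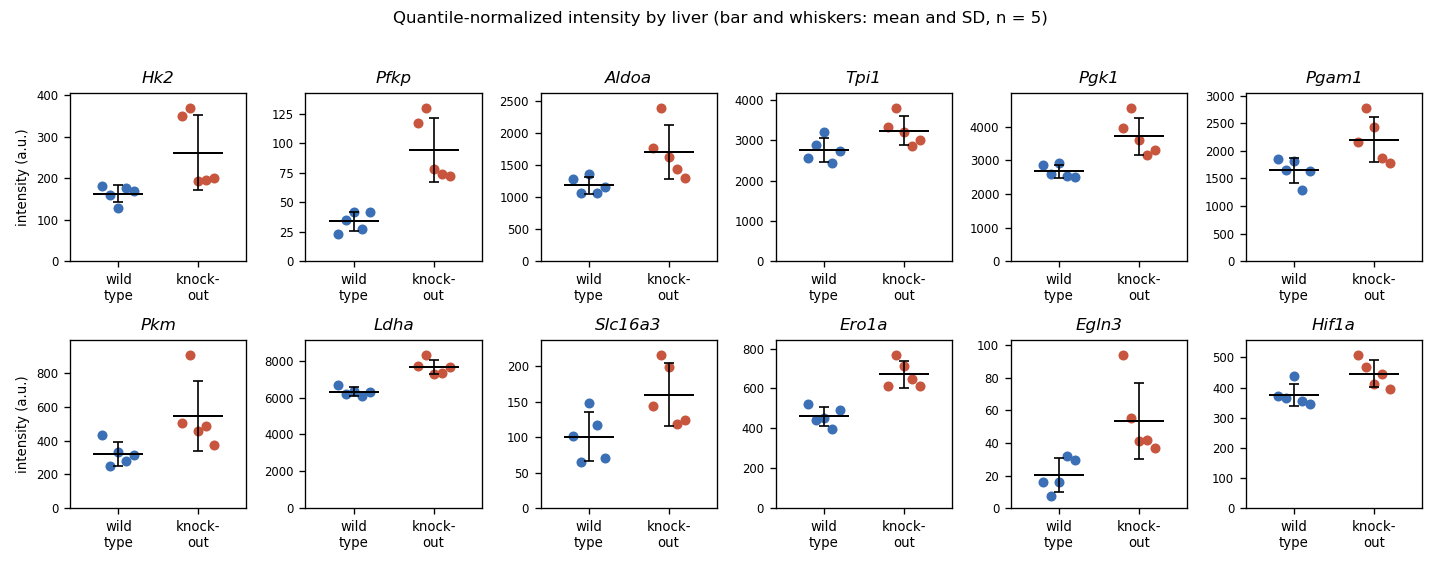
Normalized intensity of 12 members in each liver, wild type in blue and knockout in red, with the mean and SD of 5 livers in black; each axis starts at 0. The genotypes are apart for Hk2, Pfkp, Pgk1, Ldha, Ero1a and Egln3, while Aldoa, Tpi1, Pgam1, Pkm, Slc16a3 and Hif1a overlap.

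Among the oxygen sensors, Hif1a, the regulated HIF subunit, read 372, 367, 438, 354 and 346 in wild type and 507, 468, 412, 445 and 395 in knockout livers. Wild type liver 3 lay within the knockout values (log2 0.25 ± 0.09, limma adjusted p = 0.336), and its dimmer tested probe sets gave -0.04 ± 0.28 and 0.40 ± 0.26. HIF is controlled mainly at the protein level, which an array does not measure. Egln3, a hydroxylase that HIF itself induces, read 16.3, 7.55, 16.1, 32.3 and 29.4 in wild type and 93.6, 55.0, 41.05, 41.6 and 36.7 in knockout livers. No livers overlapped, and 1 wild type liver was below the floor (log2 1.27 ± 0.33, limma adjusted p = 0.129; exact permutation p = 0.00794). Egln1, the main sensor, averaged 197 ± 65.4 and 191 ± 28.3 (log2 0.00, 95% interval -0.38 to 0.38).

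Ero1a, the oxidase that helps form disulphide bonds in the endoplasmic reticulum, had the lowest p among the members. It read 522, 442, 453, 396 and 492 in wild type and 614, 766, 713, 647 and 614 in knockout livers. The genotypes were well apart (1.46-fold, log2 0.54 ± 0.09, limma adjusted p = 0.0230). Its other probe sets gave 0.46 and 0.51, again with no overlap (limma adjusted p = 0.0600 and 0.0726).

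Of the genes that turn mitochondria down, Pdk1, the kinase that shuts pyruvate dehydrogenase, averaged 399.8 ± 68.5 and 348 ± 57.7 (log2 -0.20 ± 0.13), and all 3 tested Pdk1 probe sets gave negative changes. Bnip3, a receptor for the removal of mitochondria, read 442, 575, 666, 510 and 799 in wild type and 763, 968, 738, 549.8 and 932 in knockout livers, with wide overlap (log2 0.40 ± 0.16, limma adjusted p = 0.394). Higd1a, a mitochondrial inner membrane protein, read 850.2, 1091, 1014, 939 and 1011 in wild type and 1207, 1133, 1114, 996 and 1177 in knockout livers. Knockout liver 4 was the one within the wild type range (log2 0.20 ± 0.07, limma adjusted p = 0.350).

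Secreted and signalling members were dim. Vegfa, the growth factor of blood vessels, read 84.3, 55.4, 69.8, 27.3 and 30.7 in wild type and 70.8, 164, 76.6, 91.2 and 81.7 in knockout livers, but its other probe set averaged 68.4 and 68.1 (log2 0.92 ± 0.33 and -0.17 ± 0.47, limma adjusted p = 0.326 and 0.952). Ankrd37, an ankyrin repeat protein, read 15.6, 29.98, 21.9, 44.8 and 35.9 in wild type and 61.8, 76.5, 43.7, 32.7 and 32.6 in knockout livers. It overlapped as well (log2 0.74 ± 0.34, limma adjusted p = 0.492). For Car9, the carbonic anhydrase often used as a mark of hypoxia, 4 wild type and 2 knockout livers were at or under the floor, so no fold is given; its values ran from 2.72 to 37.8 and from 6.60 to 36.1.

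The remaining hypoxia-induced members overlapped. Log2 changes were 0.70 ± 0.37 for Ddit4, an inhibitor of mTORC1, 0.23 ± 0.16 for Ndrg1, 0.14 and 0.04 for the collagen prolyl hydroxylases P4ha1 and P4ha2, 0.10 for the histone demethylase Kdm3a and -0.34 ± 0.33 for the vasoactive peptide gene Adm (limma adjusted p from 0.591 to 0.981). Ndrg1 averaged 678 ± 195 and 785 ± 147, from a probe set with the x suffix, and 2 of its 5 probe sets had an unadjusted p under 0.05. The other P4ha1 probe set, at 50.8 and 80.6, gave 0.80 ± 0.32 (limma adjusted p = 0.413) and was also under 0.05 unadjusted. Of 21 members with several tested probe sets, 16 had changes of the same sign in all of them, and those of Adm, Hif1a, Pfkl, Pklr and Vegfa differed in sign.

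Related genes changed unequally in several pairs. The log2 ratio of 2 such genes within each liver was compared between the genotypes for 8 pairs by a two-sided exact permutation test. Relative to its partner, Pfkp was higher in each knockout liver: the log2 ratio to Pfkl was -4.65 ± 0.26 for wild type against -3.17 ± 0.23 for the knockout (SD, n = 5; difference 1.49, exact permutation p = 0.00794, adjusted p = 0.0476). The ratios Egln3 to Egln1 (difference 1.27), Hk2 to Hk1 (0.80) and Pkm to Pklr (0.69) each had an exact permutation p = 0.0238 (adjusted p = 0.0476), with overlap of the genotypes. The ratios Ldha to Ldhb (0.38, exact permutation p = 0.0873), Pfkm to Pfkl (-0.21), Aldoc to Aldoa (-0.12) and P4ha2 to P4ha1 (-0.10) did not pass. With 4 equal adjusted values this near the threshold, leaving out a single liver left between 0 and 2 pairs passing, and leaving out knockout livers 1 and 2 together left 0. Over 8 pairs, a pair that alone separates the genotypes fully cannot go below an adjusted p of 0.0635 with 5 against 5 or 5 against 4 livers, or 0.143 with 5 against 3, so that a pass here needs low values in several pairs and the last count says nothing about stability. The Pfkp to Pfkl ratios of the 3 knockout livers left all remained above those of the wild type livers. The differences then were 1.33 for Pfkp to Pfkl, 0.95 for Egln3 to Egln1, and 0.39 for both Hk2 to Hk1 and Pkm to Pklr.

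**Figure D3:**
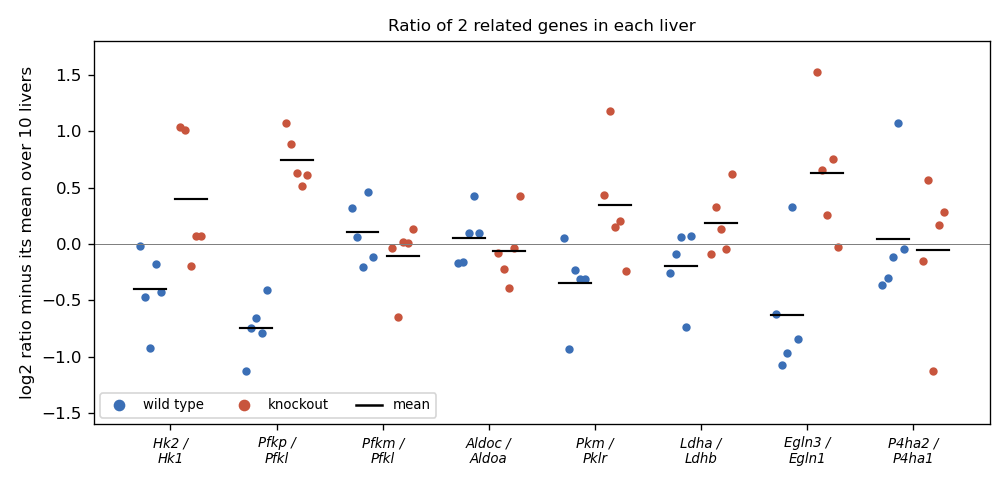
The log2 ratio of 2 related genes in each liver minus its mean over the 10 livers, wild type in blue and knockout in red, with black lines at the genotype means. For Pfkp to Pfkl all knockout livers lie above all wild type livers, and in the other 7 pairs the genotypes overlap.

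The calls depended on single livers. Left out singly, any liver but wild type 5 ended the calls of Pfkp and Ldha, and any but wild type 5 or knockout 4 that of Pgk1; Ero1a was no longer called without wild type liver 2, 3 or 4 or knockout liver 3 or 4. The changes stayed between 1.34 and 1.56 for Pfkp, 0.25 and 0.29 for Ldha, 0.38 and 0.52 for Pgk1 and 0.49 and 0.59 for Ero1a. Knockout liver 2 held the highest value of 18 of the 34 members, and knockout livers 1 and 2 held the 2 highest values of 11. Without both, a choice made after seeing the values, 0 members were called and the changes were 1.18 for Pfkp, 0.33 for Pgk1, 0.24 for Ldha and 0.52 for Ero1a (limma adjusted p = 0.217, 0.127, 0.184 and 0.0750). The medians were then 0.19 for glycolysis and 0.16 for hypoxia-induced members.

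**Figure D4:**
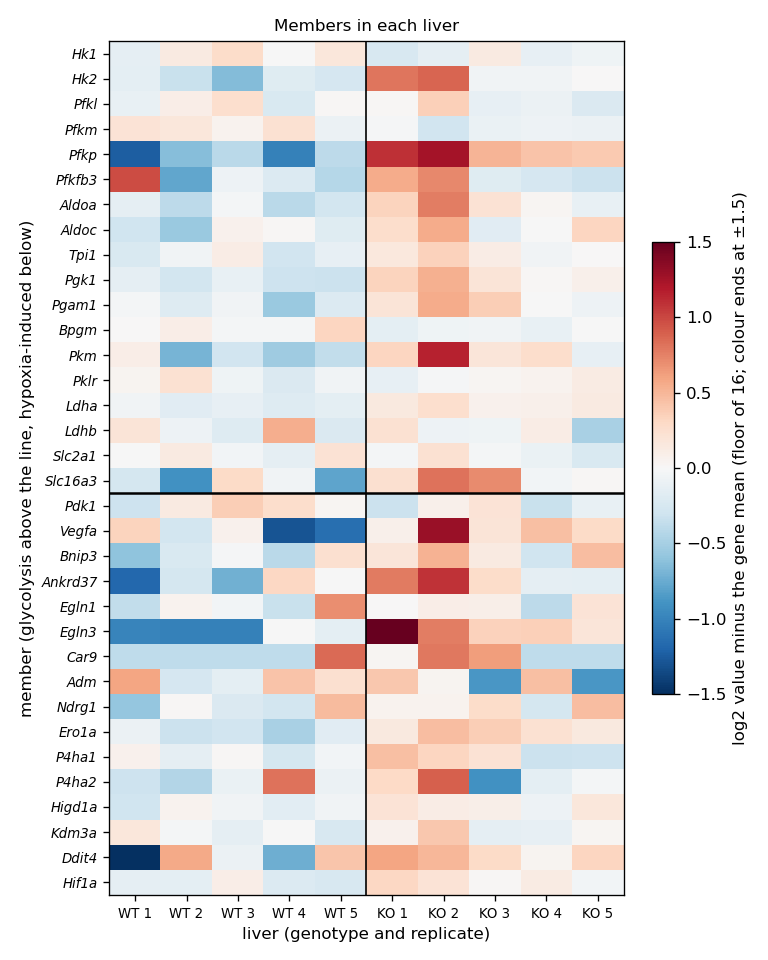
The log2 value of each member in each liver minus the member's mean over the 10 livers, glycolysis members above the line and hypoxia-induced members below, with red for high and blue for low. Knockout liver 2 is the darkest red for Pfkp, Pkm and Vegfa and knockout liver 1 for Egln3, while Bpgm, Pfkm, Pklr and Slc2a1 stay pale in every liver.

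Pairs of members were, on the median, weakly correlated from liver to liver within a genotype, with a wide spread. After subtracting the genotype means, the median Pearson correlation over the 10 livers was 0.23 among the 153 pairs of glycolysis members (range -0.71 to 0.95). It was 0.18 among the 120 pairs of hypoxia-induced members (-0.63 to 0.94) and 0.20 between both sets (-0.77 to 0.87). Over all pairs of tested genes it was 0.00. The median of a single member with the other members ran from -0.34 for Pfkm to 0.49 for Aldoa. These are descriptions, and all values of a liver share its array. Pgk1 was then compared with 10 partners, with exact permutation within genotype and adjustment over the 10. Of these, Aldoa alone passed (r = 0.95, two-sided exact permutation p = 0.00132, adjusted p = 0.0132; Spearman's rho = 0.94, exact permutation p = 0.00174, adjusted p = 0.0174). Without knockout livers 1 and 2, the livers farthest from the median level of Pgk1, r was 0.83. Without knockout livers 2 and 4, the farthest after subtracting the genotype means, a choice made after seeing the data, it was 0.92. The correlation no longer passed without knockout liver 1 (r = 0.95, exact permutation with adjusted p = 0.0660), knockout liver 2 (0.88, adjusted p = 0.115) or both (0.83, adjusted p = 0.403), or with median scaling (0.89, adjusted p = 0.0910). Ldha (r = 0.80, exact permutation p = 0.0151; rho = 0.66, exact permutation p = 0.0905) and Pkm (r = 0.80, exact permutation p = 0.0155; rho = 0.64, exact permutation p = 0.0710) had an adjusted p of 0.0516 for r and 0.302 for rho, with r of 0.48 and 0.50 without knockout livers 1 and 2 and of 0.52 and 0.74 without knockout livers 2 and 4.

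Of the hypoxia-induced partners none (0 of 6) passed. Pearson's r was 0.63 for Vegfa (rho = 0.50, exact permutation p = 0.0362 and 0.143, adjusted p = 0.0906 and 0.356), 0.50 for Ero1a, 0.29 for Bnip3, 0.17 for Pdk1, -0.05 for Ddit4 and -0.24 for Ndrg1, with exact permutation p of the last 5 from 0.154 to 0.852 (adjusted p from 0.303 to 0.852). Their rho values were 0.38 for Ero1a, 0.25 for Bnip3, 0.38 for Pdk1, 0.18 for Ddit4 and -0.18 for Ndrg1 (exact permutation p from 0.315 to 0.628, adjusted p from 0.464 to 0.628). For Slc2a1, r was 0.51 and rho 0.38 (exact permutation p = 0.182 and 0.325, adjusted p = 0.303 and 0.464), and r was -0.16 without knockout livers 1 and 2 and 0.04 without 2 and 4. In the same order of omissions, r was 0.68 and 0.59 for Vegfa, 0.48 and 0.24 for Ero1a, -0.06 and -0.40 for Bnip3, 0.23 and -0.25 for Pdk1, -0.36 and -0.29 for Ddit4 and -0.28 and -0.70 for Ndrg1.

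**Figure D5:**
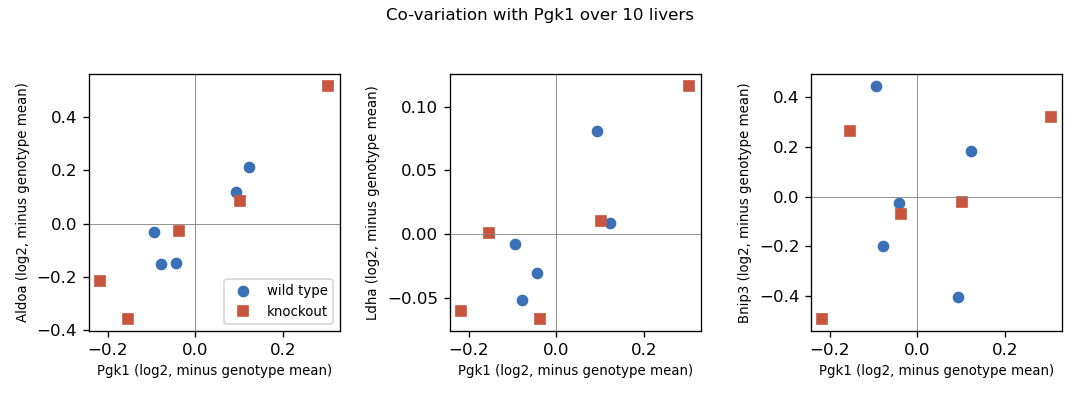
Log2 values of Aldoa, Ldha and Bnip3 against Pgk1 in each liver, each minus its genotype mean, wild type as blue circles and knockout as red squares. Aldoa rises with Pgk1 over both genotypes (r = 0.95), while Bnip3 is scattered (r = 0.29).

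Egln1, Ndrg1, Bnip3 and Bpgm, picked after seeing the correlations, also varied together. Their pairs with Egln1 were among the highest of all 561 pairs of members and so are given with no test. Egln1 with Ndrg1 reached r = 0.94 (rho = 0.95), with Bnip3 0.88 (rho = 0.87) and with Bpgm 0.87 (rho = 0.75). Other pairs were as high, such as Pfkl with Tpi1 (0.93) and Aldoa with Pkm (0.90). Egln1, Ndrg1, Bnip3 and Bpgm were each highest in wild type liver 5 among wild type livers. A marker score is here the median over the list of log2 values minus the gene's mean in each genotype. The score of the macrophage markers was related to the same genes, with r = 0.89 for Egln1, 0.88 for Bpgm, 0.80 for Ndrg1 and 0.66 for Bnip3. That of the neutrophil markers gave 0.79, 0.83, 0.81 and 0.46 for the same genes. Pgk1 ran against the score of the cell cycle markers, at r = -0.92 (rho = -0.94). The marker correlations in this paragraph were picked from 340 after seeing them, this one as the largest in size, and have no test. Among the other large ones were Aldoa (-0.83), Hk2 (-0.78) and Kdm3a (-0.77) with the cell cycle. Car9 with the macrophage (0.82) and Hk1 with the red cell markers (0.77) were large too. For Car9, 4 wild type and 2 knockout livers were at or under the floor. The correlation of Pgk1 with the cell cycle score depended on which livers entered. It was -0.79 without knockout livers 2 and 4, the farthest after subtracting the genotype means. It was 0.08 without the 2 livers farthest from the median of a score that used gene means over all livers. Genotype means were subtracted after that omission. The same kind of omission, made for each score, gave 0.35 for Aldoa, -0.39 for Hk2 and -0.28 for Kdm3a with the cell cycle. It gave 0.91 for Car9 with the macrophage and 0.82 for Hk1 with the red cell markers. With the macrophage score it gave 0.78 for Egln1, 0.75 for Bpgm, 0.71 for Ndrg1 and 0.67 for Bnip3. With the neutrophil score it gave 0.61, 0.82, 0.73 and 0.06 for the same genes. The part of these cells and of cell division in the members' values was not tested.

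Markers of other cells were compared between the genotypes too, and in some lists most changes had the same sign. All 11 macrophage markers were positive (5 at an unadjusted limma p under 0.05, 0 called), with summed levels of 3541 to 7118 in wild type and 6373 to 7351 in knockout livers. Of 9 neutrophil markers 7 were positive (6 at that p, 0 called; sums of 6185 to 27598 and 13936 to 26198). Of 9 tested red cell markers 7 were negative, with 5 at that p and 0 called. Their sums, in which the brightest genes weigh most, overlapped (32089 to 39574 and 29309 to 40621). The median over the list of log2 values minus the gene's mean over all livers did not overlap. It ran from 0.02 to 0.18 in wild type and from -0.20 to -0.02 in knockout livers. Negative too were 6 of 7 cell cycle markers, with 4 at that p and 0 called (sums of 15106 to 16929 and 13286 to 15023). Hepatoblast (sums of 66559 to 72452 and 65532 to 75478) and endothelial markers (955 to 1137 and 1045 to 1279) were each positive in 5 of 8, with 2 of each higher at that p (Fgb and Hnf4a, Stab2 and Cdh5) and 0 called. Of 7 stellate and mesenchymal markers 6 were positive (sums of 2711 to 3262 and 2371 to 4203). Of 6 immediate early genes 5 were positive (sums of 942 to 1157 and 935 to 1524), and 2 of 3 skeletal muscle markers were (sums of 109.5 to 185 and 109 to 149). The part of these cells in the differences of the members was not tested, and in whole livers fewer cells of a type and less RNA per cell cannot be told apart.

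Of 20 tested other genes of glycolysis and gluconeogenesis, limma called 0, with 2 higher and 2 lower at an unadjusted p under 0.05 and a median of -0.06. The phosphoglucomutase Pgm2 averaged 215 ± 19.5 and 172 ± 19.7 (log2 -0.32 ± 0.11, limma adjusted p = 0.292), and Pfkfb4, a relative of Pfkfb3, 29.1 ± 22.0 and 58.2 ± 18.1 (log2 1.04 ± 0.38, limma adjusted p = 0.343). Of 11 tested HIF regulators, among them the other subunits and the ubiquitin ligase, limma called 0 and none passed at an unadjusted p under 0.05 (0 of 11, median -0.02); the lowest p values were those of the coactivator Ep300 (log2 -0.12 ± 0.08, limma adjusted p = 0.661) and the alpha subunit Hif3a (-0.17 ± 0.14, limma adjusted p = 0.766).

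Of 29 tested other HIF targets, limma called 0, with 6 higher and 1 lower at an unadjusted p under 0.05 and a median of 0.06. Haem oxygenase Hmox1, which also marks macrophages that clear red cells, averaged 637 ± 107 and 900.1 ± 158 (log2 0.50 ± 0.12, limma adjusted p = 0.114), and the membrane-binding annexin Anxa2 918 ± 133 and 1201 ± 150.1 (log2 0.39 ± 0.10, limma adjusted p = 0.129). Of 11 genes for the entry of pyruvate into mitochondria, limma called 0 and 0 had an unadjusted p under 0.05 (median 0.06), the lowest being Dlat (0.22) and Pdk3 (-0.14). Of 6 genes of the pentose phosphate pathway, limma called 0 and 1 was higher at that p (median -0.02). It was Pgd, the enzyme that releases carbon dioxide from 6-phosphogluconate, at 744 ± 18.9 and 899 ± 107 (log2 0.26 ± 0.08, limma adjusted p = 0.198); next came Rpia at -0.15.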

How the data were processed

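For 45037 probe sets and 10 arrays, the authors deposited intensities on a linear scale, of which 21.5% are at or below 0. How they were background-corrected and scaled was not stated in the labels. Per the labels' protocols, 1 µg of RNA per liver was labelled with a one-cycle Affymetrix kit. Values were quantile-normalized, set to at least 16 and taken to log2. The 27022 probe sets tested were those whose mean log2 value reached the 40th percentile. The genotype effect was fitted by limma 3.58.1 (R 4.3.3; eBayes with trend, no covariates), and p-values were adjusted by Benjamini-Hochberg across those probe sets. A gene is its brightest single-symbol probe set. SE and 95% intervals are limma's, and SDs are of 5 normalized linear values.

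The members, lists, tests and the floor of 16 were chosen with earlier results of these data known; with the lowest positive value as floor no member is called, as the results state. Every liver's value is given for members called, with an unadjusted p under 0.05 or with no overlap of the genotypes. Of each pathway list the called genes, or else the 2 of lowest p, are named. The p-values over 5 against 5 livers judge a genotype difference against the variation among fetuses of a genotype. Litter was not stated, so whether some fetuses were littermates is not known. No fold is given where 3 or more livers of a genotype are at the floor. Alternatives covered normalization, floor, offset, filter, variance model, array weights, the mean over probe sets, a replicate block and each liver left out. The methods were tested on simulated data. Plots used matplotlib 3.10.9 (Python 3.11.15).

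Genotypes share replicate numbers 1 to 5 in the labels. Deviations of same-numbered livers from their genotype means correlated at 0.03 to 0.13, positive for every number but over 0.1 only for number 5. The numbers were therefore not treated as pairs. Such a cut-off cannot exclude a pairing, and a replicate block called 121 genes against 42. For arrays, the number of livers limits the precision.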

Additional observations from a re-analysis of the deposited data

Results flagged for a closer look

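Dixon's ratio was computed over 84 groups of 5 livers, where chance gives about 1 in 20, or 4.2, and it put 4 values apart. Car9 in wild type liver 5 had a log2 value of 5.24, with the other 4 wild type livers at the floor. P4ha2 in wild type liver 4 had a log2 value of 5.91, the nearest other liver being at 5.02, and in the same liver the log2 ratio of P4ha2 to P4ha1 was -0.54, the nearest being -1.66. The log2 ratio of Pfkm to Pfkl in knockout liver 2 was -2.08, the nearest being -1.47.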

How the results depend on the processing

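Of the called members, Ero1a was called in 14 of 24 settings, Pfkp in 9 and Pgk1 and Ldha in 8 each, with positive changes throughout. Glycolysis members called, 3 as reported, numbered 0 with the lowest positive value as floor, a floor of 32, no filter or eBayes without trend, and 1 without further normalization or with the mean over probe sets; hypoxia-induced members called, 1 as reported, numbered 0 in the first 4 of these. Genes called, 42 as reported, numbered 9, 7, 1 and 6 in those 4, 70 with array weights and 121 with the replicate block; probe sets called, 57 as reported, numbered 11, 12, 4 and 9, and 94 with median scaling, 103 and 179. Median scaling made 64.9% of called genes higher, against 47.6%, called Aldoa (limma adjusted p = 0.0415) and lost Ldha (0.0615), and the filter at the 60th percentile lost Pgk1 (0.0503); the block called Pgam1 (limma adjusted p = 0.0405) and no fewer members. Of the paralog pairs 4 passed, and 0 with a floor of 32. Of the Pgk1 correlations 1 passed, 2 without further normalization and 0 with median scaling (Aldoa 0.89). With each liver left out, these ranged from 0 to 3 glycolysis and 0 to 1 hypoxia-induced members, 10 to 115 genes, 13 to 168 probe sets, 0 to 2 pairs and 0 to 2 correlations, with medians of 0.21 to 0.32 and 0.19 to 0.30. Without knockout livers 1 and 2, an alternative chosen after seeing the data, 0 members of either set, 5 genes, 12 probe sets, 0 pairs and 0 correlations passed. The cause of these shifts was not tested. Members near the floor, such as Car9, Egln3 and Ankrd37, are limited by signal over background. The same limit holds for Pfkp, at 23.3 to 41.8 in wild type livers, whose change ran from 0.87 to 1.56 over the 24 settings.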
